A study of Mus musculus with 6 samples.

Results

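Infiltrating monocyte-macrophages of the inflamed mouse spinal cord were compared between cells sorted as positive and cells sorted as negative for reactive oxygen species (ROS). They were chosen cell by cell from UMIs (unique molecular identifiers, each standing for 1 captured RNA molecule). A cell had to hold 10 or more UMIs summed over the monocyte genes Ccr2, Ly6c2, Fn1, F10, Tgfbi, S100a4 and Plac8. It could hold at most 2 UMIs over the microglial genes Tmem119, P2ry12, Siglech, Sparc and Olfml3, and none of the T cell genes Cd3d, Cd3e and Cd3g. This left 5022 of 7122 barcodes in 4 libraries from mice with experimental autoimmune encephalomyelitis (EAE), and of 9079 barcodes in all 6 libraries of the series. The healthy libraries held none among 1755 and 202 barcodes, which allows shares of up to 0.210% and 1.81% (exact 95% upper bounds).

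All mice were C57BL/6 and 10 weeks old. EAE, in which immunisation with the myelin peptide MOG35-55 brings on an inflammatory demyelinating disease like multiple sclerosis, was at its onset (condition "Onset EAE"). Myelin-depleted spinal cord cells were incubated with 10 µM DCFDA, a dye that becomes fluorescent on oxidation, and live CD11b+ cells (CD11b is the integrin alpha chain of myeloid cells) were sorted by dye signal into ROS+ and ROS-. Each EAE gate had 2 libraries, numbered replicate 1 and 2; the healthy group was ROS- only and enters no comparison here. The labels do not say whether libraries came from separate or pooled animals or whether a shared number marks the same animals. The p-values therefore speak only for these libraries, not for a known number of animals.

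In EAE, blood monocytes that carry the chemokine receptor CCR2 enter the spinal cord and mature into macrophages that present antigen, secrete cytokines and clear debris. Phagocytes make superoxide with the NADPH oxidase, whose catalytic subunit is encoded by Cybb, and limit its spread with glutathione enzymes and peroxiredoxins. Young monocytes carry alarmins and acute-phase proteins such as S100A8 and serum amyloid A, which decline as the cells mature, while MHC class II and lipid-handling genes rise.

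Monocyte-macrophages numbered 1326 and 2090 in EAE ROS+ replicates 1 and 2, and 586 and 1020 in EAE ROS- replicates 1 and 2. Of ROS+ barcodes they made up 76.0%, with a 95% interval from 73.9% to 78.0%, and 93.6% (92.5% to 94.6%). In ROS- they were 36.3% (34.0% to 38.7%) and 66.7% (64.2% to 69.0%) of barcodes. These shares are set by the rule and were not tested, and the intervals (Clopper-Pearson, as for all shares here) cover counting error only. The cells summed to 14659424 and 13709704 UMIs in ROS+ and to 4356222 and 7052061 in ROS-. Median UMIs per cell were 8840.5 and 5394 in ROS+ and 7246 and 6396 in ROS-; the ROS- values lay between the ROS+ ones (exact two-sided permutation p = 1, with 0.33 the smallest that 2 against 2 libraries allow). At most 7 barcodes were shared between any 2 libraries.

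The label was also checked on genes outside the rule, most of which microglia carry too. Csf1r, the receptor for the macrophage growth factor CSF1, had a UMI in 86.3% to 96.8% of the cells of a library and Cd14, the co-receptor for bacterial lipopolysaccharide, in 81.2% to 96.1%. Ms4a6c, a membrane protein of monocytes, had one in 89.2% to 97.9%. Csf1r was found in 98.8% to 100% of microglia of the same libraries, so it does not tell these cells from microglia. After thinning to 3000 UMIs per cell, Ms4a6c had a UMI in 75.6% to 88.6% of monocyte-macrophages and 46.1% to 60% of microglia. Cd14 had one in 71.0% to 88.0% and 47.0% to 73.5%, and within each library it was found in a larger share of monocyte-macrophages. The 4 defining markers were used by the rule and are given without a test. Ly6c2, the monocyte surface protein, was at 1443 and 1599 CPM (UMIs scaled to a common library total, here with TMM factors) in ROS+ and at 818 and 1398 in ROS-. Ccr2 was at 301 and 440 CPM in ROS+ and 314 and 246 in ROS-. Fn1, which encodes fibronectin, was at 588 and 526 in ROS+ and 276 and 391 in ROS-, and F10, the clotting factor X, at 515 and 546 against 337 and 647. Summed over its 5 genes the microglial score held 63.1 and 44.8 CPM (plain totals) in ROS+ and 133 and 70.2 in ROS-.

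The rule's bounds fell in sparsely filled ranges for monocyte genes but not for microglial ones. Of the cells that met the other conditions, 7 and 3 in ROS- replicates 1 and 2 and 1 and 3 in ROS+ replicates 1 and 2 held exactly 10 monocyte UMIs. Exactly 2 microglial UMIs were held by 163 and 96 cells in ROS- and by 224 and 109 in ROS+. Just outside, 103 and 32 cells in ROS- and 118 and 30 in ROS+ held 3. In ROS+ replicate 1 the cells just outside had a median of 15801 UMIs, against 10979 just inside.

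Between the gates, 32 genes were higher and 66 lower in EAE ROS+ monocyte-macrophages of 11654 tested, leaving out the 15 genes of the rule (edgeR quasi-likelihood test on UMIs summed per library, replicate number as a block, Benjamini-Hochberg adjusted p under 0.05). That is 0.275% and 0.566% of genes tested, and 0.841% in either direction. The same test with no replicate block called 4 higher (S100a9, Ngp, Camp and Retnlg) and 8 lower, among them Ccl22, Ccr7, Cd209a and Klrd1 (0.0343% and 0.0686% of genes tested, 0.103% in either direction). Every other gene named below as called in this comparison of all cells lost its call with no replicate block. Genes with both ROS+ libraries above both ROS- libraries were 16.2% of those tested, and genes with both below were 16.5%. The genes that were higher included neutrophil granule genes, early monocyte genes and a pair of coagulation genes, and those that were lower included dendritic cell genes, H2-Oa and H2-DMb2. The median log2 fold change over all genes tested was 0.01.

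**Figure D1:**
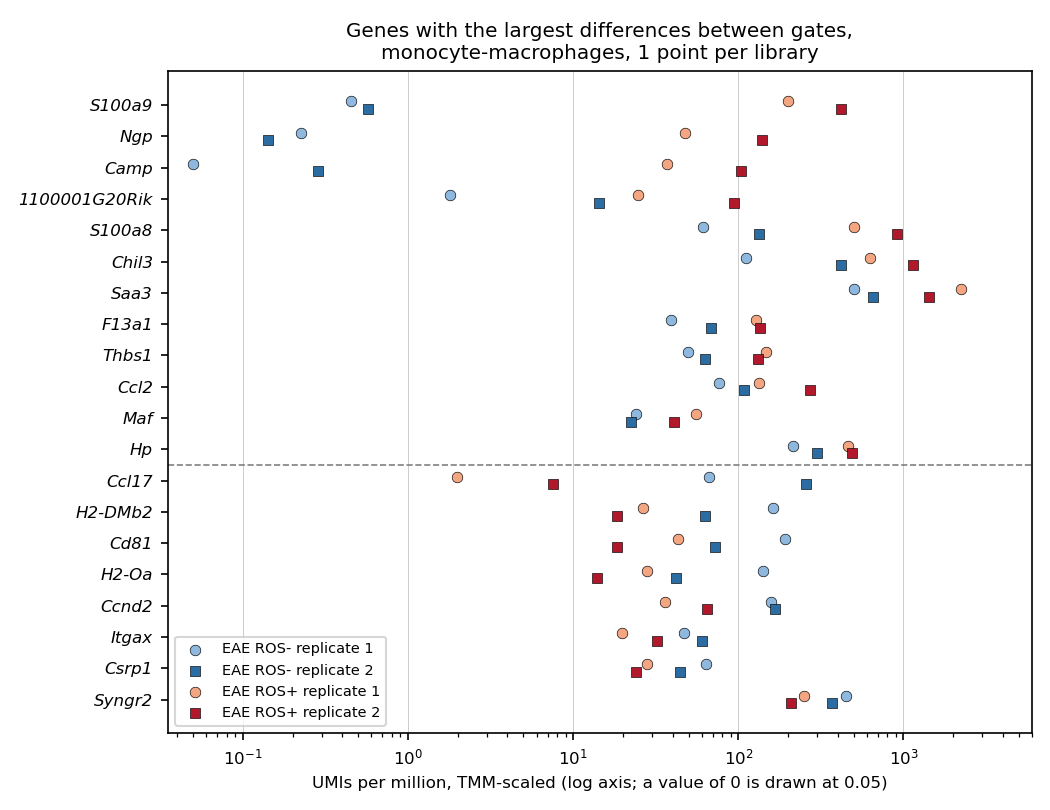
Levels of the genes with the largest differences between the gates, as TMM-scaled CPM on a log axis, with 1 point for each of the 4 libraries (blue shades ROS-, orange and red ROS+; circles replicate 1, squares replicate 2; a level of 0 is drawn at the left edge). Genes above the dashed line were higher in both ROS+ libraries, from 198 and 417 against 0.449 and 0.569 for S100a9 to 464 and 489 against 214 and 299 for Hp, and those below it were lower in both.

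The promoters of Saa3 and Lcn2 show the sequence in front of early monocyte genes that were both higher in ROS+ cells. Each is the stretch of 250 bases before the gene's start in RefSeq on GRCm38.p6, the assembly of the files' mm10 build, read 5′ to 3′ on the minus strand. Saa3 lies at chr7:46715677-46715926 and Lcn2 at chr2:32387740-32387989. Capitals mark matches to either strand of TTGCNNAA, the core bound by C/EBP factors of myeloid cells, or GGG and CC with 5 bases between them, the form of sites for NF-kB.
Saa3: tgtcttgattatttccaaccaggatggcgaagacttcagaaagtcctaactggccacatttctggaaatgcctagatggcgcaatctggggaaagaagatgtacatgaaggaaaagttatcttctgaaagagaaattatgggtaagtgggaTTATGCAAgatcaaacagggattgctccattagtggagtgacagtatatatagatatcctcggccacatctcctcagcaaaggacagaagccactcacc
Lcn2: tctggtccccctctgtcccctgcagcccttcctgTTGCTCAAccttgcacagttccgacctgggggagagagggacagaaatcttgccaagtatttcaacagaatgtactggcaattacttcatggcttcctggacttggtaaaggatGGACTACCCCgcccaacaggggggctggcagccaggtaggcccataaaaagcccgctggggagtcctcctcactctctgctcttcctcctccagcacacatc
Saa3 held 1 C/EBP-type match, whose first base lay 99 bases before the start, and Lcn2 held 1, at 216 bases, and 1 match of the NF-kB form, at 102. Neither held TGANTCA, the form bound by AP-1. The matches do not overlap. Of 32851 promoters of the same length, 9.56% held the C/EBP form, 45.8% the NF-kB form and 6.75% the AP-1 form. These matches are a description of the letters, and binding was not measured.

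Acute-phase and early monocyte genes were higher in ROS+ monocyte-macrophages. Of 16 early monocyte genes, all 16 tested, 9 were higher, none was lower and 7 were not called, with a median log2 fold change of 1.27. Over all genes tested, 0.275% were higher and 0.566% lower. The 9 include S100a8, S100a9 and Lcn2, most of whose ROS+ UMIs lay in cells with markers of other types. S100a8 and S100a9 are also counted among the neutrophil markers below. Saa3, an acute-phase serum amyloid A protein, stood at 2216 and 1421 CPM in ROS+ and at 504 and 655 in ROS- replicates 1 and 2. Both ROS+ libraries lay above both ROS- libraries, and the fitted difference was 3.09-fold (log2 1.63 ± 0.22 SE, edgeR adjusted p = 0.00623; 0.16 with no replicate block). Chil3, a chitinase-like secreted protein of monocytes and alternatively activated macrophages, stood at 626 and 1145 CPM in ROS+ and at 111 and 416 in ROS-. Its level was higher in replicate 2 of each gate, and within each number ROS+ was higher (log2 1.97 ± 0.22, adjusted p = 0.00174; 0.799 with no replicate block). Hp, the haemoglobin-binding haptoglobin, was at 464 and 489 CPM against 214 and 299 (log2 0.91 ± 0.16, adjusted p = 0.0241; 0.495 with no replicate block and 0.18 on cells thinned to 3000 UMIs).

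Lcn2, which binds bacterial iron carriers, was at 27.4 and 59.6 CPM in ROS+ and at 2.70 and 6.12 in ROS- (log2 3.30 ± 0.21, edgeR adjusted p = 2.46e-05; 0.0909 with no replicate block). Of its ROS+ UMIs, 70.3% and 72.0% lay in cells with markers of other types, and without those cells the difference was 1.68 ± 0.27 (adjusted p = 0.00282). Lrg1, a secreted leucine-rich glycoprotein, and Vcan, the proteoglycan versican, were named after their values were seen. Lrg1 stood at 18.8 and 109 CPM in ROS+ and 3.60 and 20.6 in ROS-, and Vcan at 5.02 and 22.1 against 1.12 and 6.69. For both genes ROS+ replicate 1 lay below ROS- replicate 2, so the gates overlapped, and both were called with the block only (adjusted p = 0.000104 and 0.00862; 0.873 and 0.933 with no replicate block), and Vcan was not called after thinning (0.0638).

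For Saa3 and Chil3 the share of cells with a UMI was higher in both ROS+ libraries. After each cell was thinned to 3000 UMIs, Saa3 had a UMI in 73.8% (95% interval 71.4% to 76.2%) and 59.8% (57.6% to 61.9%) of ROS+ cells and in 33.8% (30.0% to 37.8%) and 34.3% (31.4% to 37.3%) of ROS- cells. Without thinning the shares were 92.8% and 72.2% against 53.9% and 48.7%. Microglia of the same libraries are given for comparison. After thinning, a Saa3 UMI was found in 17 of 34 and 7 of 20 ROS+ microglia. In ROS- it was found in 161 of 551 and 39 of 219. The microglial intervals overlapped those of monocyte-macrophages in ROS- replicate 1 (25.4% to 33.2%) and ROS+ replicate 2 (15.4% to 59.2%, 20 microglia). They did not overlap in ROS- replicate 2 (12.98% to 23.53%) or ROS+ replicate 1 (32.4% to 67.6%). Overlap of intervals is not a test, and the difference between the classes was not tested on these shares. Whether the microglial UMIs reflect expression or background was not tested. Thinned shares of cells with a Chil3 UMI were 57.6% and 77.9% in ROS+ and 14.8% and 39.3% in ROS- monocyte-macrophages, against 4 of 34, 5 of 20, 18 of 551 and 24 of 219 microglia in the same order. Median UMIs of those microglia were 9612 and 6340 in ROS+ and 6901 and 4868 in ROS-.

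**Figure D2:**
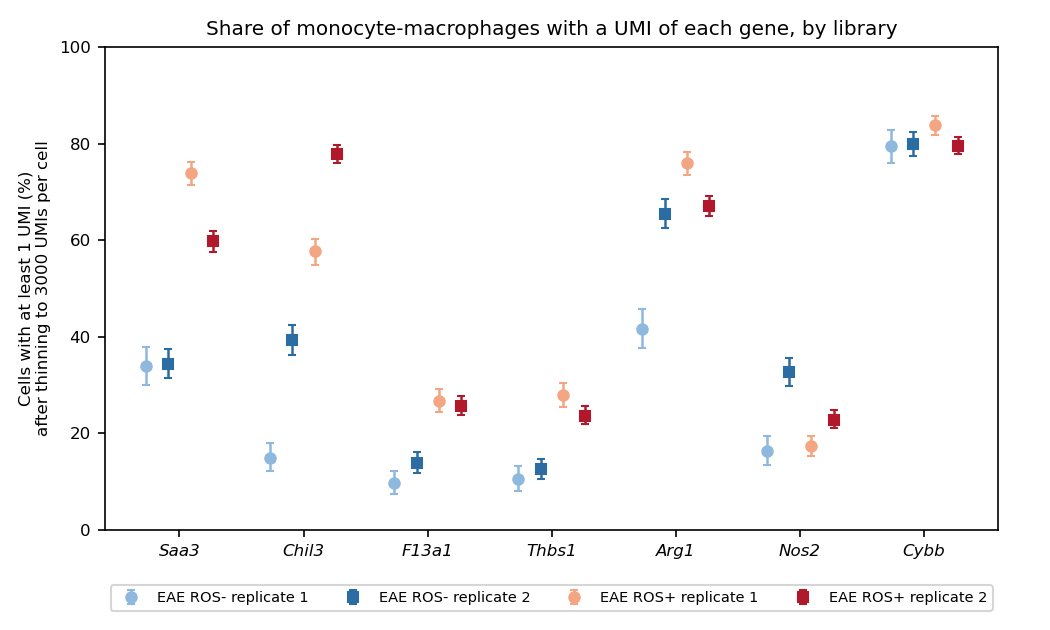
Share of monocyte-macrophages with at least 1 UMI of a gene after thinning to 3000 UMIs per cell, with 1 point per library and bars for the exact 95% interval of counting error. Saa3, Chil3, F13a1 and Thbs1 lay higher in both ROS+ libraries, as did Arg1, whose replicate 2 intervals overlapped between the gates, while Nos2 and Cybb points overlapped between the gates.

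S100a9 and the neutrophil granule genes Ngp and Camp were almost absent from ROS- monocyte-macrophages and present in ROS+ ones, where most of their UMIs sat in a small set of cells. S100a9, the calcium-binding partner of S100A8, had 2808 and 5788 UMIs in ROS+ and 2 and 4 in ROS- libraries. Per UMI sequenced that is a ratio of 576 (exact 95% counting interval 264 to 1570; edgeR adjusted p = 1.03e-07). A single cell held 1657 of the 2808 UMIs in ROS+ replicate 1, and a single cell held 947 of the 5788 in replicate 2. The granule genes Ngp and Camp, which encode neutrophilic granule protein and cathelicidin, had 674 and 1931, and 521 and 1439, UMIs in ROS+. In ROS- they had 1 and 1, and 0 and 2, with ratios of 524 (counting interval 145 to 4326) and 394 (109 to 3256). In ROS+ replicates 1 and 2 a single cell held 546 and 380 of the Ngp UMIs, and a single cell held 459 and 296 of the Camp UMIs. The counting intervals of all these ratios treat UMIs as independent, so they are too narrow where 1 cell holds many UMIs. S100a8 was less confined to one gate, at 504 and 910 CPM in ROS+ and 60.7 and 134 in ROS- (log2 2.90 ± 0.16, adjusted p = 8.39e-06).

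Neutrophil markers as a list overlap with these genes. Of 9 neutrophil markers, S100a8, S100a9, Camp, Ngp, Ltf, Mmp8, Retnlg, Csf3r and Cxcr2, 6 were higher and none lower. Over all genes tested, 0.275% were higher and 0.566% lower. The 6 include S100a8, S100a9, Ngp and Camp, given above, so they are no separate evidence. The summed level of the 9 markers was 870 and 1752 CPM (plain totals) in ROS+ and 138 and 200 in ROS-. Camp and Retnlg were at 0 in ROS- replicate 1 and Ltf in replicate 2. Cells with 3 or more UMIs of Camp, Ngp, Ltf, Mmp8 and Retnlg numbered 68 of 1326 and 122 of 2090 in ROS+. In ROS- they numbered 14 of 586 and 12 of 1020. In ROS-, Camp, Ngp, Ltf and Retnlg had 0, 1, 1 and 0 UMIs in replicate 1 and 2, 1, 0 and 1 in replicate 2. Most of these ROS- cells were therefore picked through Mmp8 UMIs. The cells that carried 3 or more UMIs of neutrophil, dendritic, natural killer or B cell markers held 86.2% and 86.6% of S100a9 UMIs and 57.4% and 70.6% of S100a8 UMIs in ROS+, though neither gene was used to pick them. They held 10.4% and 9.81% of Saa3 UMIs and 9.02% and 9.38% of Chil3 UMIs. Whether these cells are neutrophils, monocytes or droplets with more than 1 cell was not tested.

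Without those cells, 526 and 922 ROS- and 1254 and 1959 ROS+ cells remained and 31 genes were higher and 48 lower (0.271% and 0.419% of 11456 tested, 0.690% in either direction), of which 26 and 42 were among the calls with all cells. With those cells left out and no replicate block, which was an alternative added after seeing the data, no gene was called in either direction by edgeR at an adjusted p under 0.05 and 422 had an unadjusted p under 0.05; no other tool was run on those sums. S100a9 fell to 28.6 and 62.8 CPM (plain totals) in ROS+, with 0.511 and 0.629 in ROS- (log2 6.36, adjusted p = 3.4e-09 with the block). S100a8 stood at 225 and 299 against 66.4 and 139 (log2 1.45 ± 0.19). Saa3 was at 2081 and 1435 against 557 and 688 CPM (log2 1.51), as did Chil3 (1.87), Thbs1 (1.21), F13a1 (1.22) and Hp (0.81), all with adjusted p under 0.05 with the block.

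**Figure D3:**
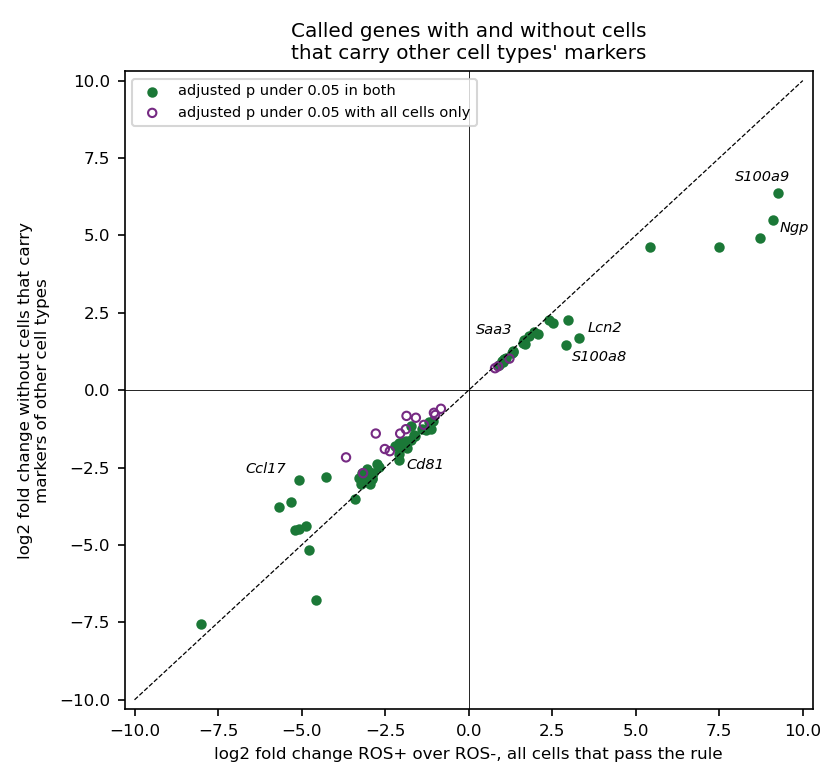
The log2 fold change (ROS+ over ROS-) of called genes with all cells that pass the rule (horizontal axis) and without cells that carry markers of other cell types (vertical axis); the dashed line marks equal values. Filled points passed an adjusted p under 0.05 in both. S100a9 and Ngp lie below the line on the right and Ccl17 above it on the left, while Saa3 and Cd81 lie close to it.

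A pair of coagulation genes was higher in ROS+ cells. Of 16 coagulation and fibrinolysis genes, 14 were tested apart from F10, 2 were higher and 12 were not called, with a median log2 fold change of 0.39. Among all genes tested, 0.275% were higher and 0.566% lower, with a median of 0.01. Thbs1, the adhesive glycoprotein thrombospondin 1, was at 146 and 131 CPM in ROS+ and at 49.4 and 62.6 in ROS- (2.48-fold, log2 1.31 ± 0.17, edgeR adjusted p = 0.00546; 0.0961 with no replicate block). F13a1, the transglutaminase that crosslinks fibrin, was at 127 and 136 against 39.3 and 68.7 (2.50-fold, log2 1.32 ± 0.19, adjusted p = 0.00862; 0.276 with no replicate block and 0.138 after thinning). Both genes were higher in each ROS+ library than in each ROS- one, as were 16.2% of all genes tested. A Thbs1 UMI was found in 27.8% and 23.6% of thinned ROS+ cells and 10.4% and 12.5% of ROS- cells, and an F13a1 UMI in 26.6% and 25.6% against 9.56% and 13.8%. In microglia of the same libraries a Thbs1 UMI was found in 1 of 34 and 2 of 20 ROS+ and 24 of 551 and 8 of 219 ROS- cells, and an F13a1 UMI in 1 of 34, 0 of 20, 13 of 551 and 4 of 219 in the same order; 0 of 20 allows a share of up to 16.84%. Procr, the endothelial protein C receptor, chosen after its values were seen, was at 49.8 and 51.6 CPM in ROS+ and 78.4 and 99.0 in ROS- (log2 -0.80 ± 0.16, adjusted p = 0.0521).

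Other genes of the same fit that were higher included Ccl2, the ligand of CCR2, at 134 and 270 CPM against 76.6 and 108 (log2 1.07 ± 0.17, edgeR adjusted p = 0.0137; 0.694 with no replicate block and 0.0672 after thinning). It was the only gene called in a list of 16 chemokines, and the list median was 0.22. The list does not hold Ccl17, Ccl22, Cxcl13 or Cxcl14. Cxcl14 and Cxcl13, named after their values were seen, were called with the block only. Cxcl14 was higher (log2 0.99 ± 0.19, edgeR adjusted p = 0.0421, and 0.552 with no replicate block). Its adjusted p was 0.281 after thinning and 0.135 with only cells that held no microglial UMI. Cxcl13 was lower (log2 -2.96 ± 0.52, adjusted p = 0.0255, and 0.805 with no replicate block). In those other settings Cxcl13 fell below the count filter and was not tested. Maf, a transcription factor of macrophages, was at 55.3 and 40.9 CPM against 24.0 and 22.3 (log2 1.03 ± 0.17, adjusted p = 0.0203; 0.279 with no replicate block and 0.138 after thinning), while the median of 14 myeloid transcription factors was 0.09 and no other was called. The gene listed as 1100001G20Rik was at 24.7 and 94.0 CPM against 1.8 and 14.4 (log2 2.96 ± 0.24, adjusted p = 0.000111). Of its UMIs in ROS+, 43.8% and 38.1% lay in cells with markers of other types.

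Dendritic cell genes were lower in ROS+ monocyte-macrophages, again with most UMIs in few cells. Ccl17, a chemokine of mature dendritic cells that attracts T cells, stood at 1.98 and 7.57 CPM in ROS+ and at 66.5 and 257 in ROS- (log2 -5.07 ± 0.19, edgeR adjusted p = 4.7e-07; 0.0916 with no replicate block). Ccl22, Ccr7, Cd209a and Klrd1 were chosen after their values were seen. Ccl22, a second ligand of the receptor CCR4, had 9 and 15 UMIs in ROS+ and 111 and 466 in ROS-. Ccr7, the receptor that guides dendritic cells to lymph nodes, had 16 and 4 UMIs against 121 and 208. Cd209a, a C-type lectin of monocyte-derived dendritic cells, had 0 and 1 UMIs against 70 and 64. Klrd1, the receptor chain CD94 of natural killer cells, had 20 and 16 UMIs against 342 and 142. Of 7 natural killer and T cell markers outside the rule, Gzma was the 1 tested and was lower (log2 -4.56 ± 0.55, adjusted p = 0.00263; 0.588 with no replicate block). Their sum was 1.64 and 0.511 CPM (plain totals) in ROS+, with Gzmb at 0 in both and Ncr1 and Gzma at 0 in replicate 2, and 29.2 and 3.69 in ROS-, with Ncr1 at 0 in replicate 2. Cells with 3 or more UMIs of Nkg7, Ncr1, Gzma and Klrb1c numbered 1 and 0 in ROS+ and 1 and 0 in ROS-. A Klrd1 UMI was found in 9 and 13 ROS+ cells and in 92 and 46 ROS- cells. The part of natural killer cells in the Klrd1 difference was not tested. Ccl22, Ccr7, Cd209a and Klrd1 were also called with no replicate block.

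Of 8 dendritic cell markers, Ccr7, Ccl17, Ccl22, Fscn1, Flt3, Zbtb46, Xcr1 and Itgae, 6 were tested, 5 were lower and none was higher. Among all genes tested, 0.566% were lower and 0.275% higher. The 5 include Ccl17, Ccl22 and Ccr7, given above, so they are no separate evidence. The 8 markers summed to 5.18 and 11.2 CPM (plain totals) in ROS+ and 149 and 366 in ROS-, with Xcr1 at 0 in ROS- replicate 2. Cells with 3 or more dendritic marker UMIs numbered 3 and 9 in ROS+ and 45 and 86 in ROS-. Cells with other types' markers held 92.2% and 96.6% of Ccl17 UMIs in ROS-, where Ccl17 helped to pick them, but 24.3% and 34.4% of Cd209a UMIs, which did not. Without them Ccl17 was at 0.518 and 1.61 CPM in ROS+ and 5.87 and 9.75 in ROS- (log2 -2.89, adjusted p = 0.000304). Without those cells H2-Oa gave -1.79, H2-DMb2 -1.81, Itgax -0.99 and Mmp12 -1.25, all with adjusted p under 0.05 with the block.

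H2-Oa and H2-DMb2, which take part in loading peptides on MHC class II, were lower as well, while the loading gene H2-DMb1 and the class II genes Cd74 and H2-Eb1 were not called. H2-Oa, a chain of the peptide-loading modulator H2-O, was at 28.1 and 13.9 CPM in ROS+ and 141 and 42.0 in ROS- (log2 -1.98 ± 0.20, edgeR adjusted p = 0.000656; 0.495 with no replicate block). H2-DMb2, a beta chain of the loading factor H2-M, was at 26.6 and 18.5 CPM against 162 and 62.5 (log2 -2.19 ± 0.21, adjusted p = 0.000458; 0.168 with no replicate block); it has a near-identical copy, H2-DMb1, so the split of reads between them is uncertain. H2-DMb1 was at 808 and 551 CPM against 981 and 779 (log2 -0.39, adjusted p = 0.357). Of 12 class II presentation and costimulation genes, 1 was lower (H2-Oa), none was higher and 11 were not called, with a median of -0.43. H2-Ob, outside that list and named after its values were seen, was lower too (log2 -2.95 ± 0.26, edgeR adjusted p = 0.000187, and 0.0961 with no replicate block). Without cells carrying other types' markers H2-Ob gave -2.68 (adjusted p = 4.82e-05). Cd74, the class II invariant chain, stood at 21265 and 10876 CPM in ROS+ and at 25807 and 18406 in ROS-, so the gates overlapped (log2 -0.52 ± 0.16, adjusted p = 0.243). H2-Eb1, a class II beta chain named after its values were seen, was at 4473 and 1703 against 6374 and 4004 (log2 -0.87 ± 0.18, adjusted p = 0.0613). Without cells carrying other types' markers its change was -0.81 ± 0.17 with an adjusted p of 0.0213.

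Several lower genes had many UMIs in cells without other types' markers. Cd81, a tetraspanin that microglia also express, was at 42.9 and 18.4 CPM in ROS+ and 192 and 72.6 in ROS- (log2 -2.07 ± 0.16, edgeR adjusted p = 8.25e-05; 0.431 with no replicate block), and only 10.9% and 8.24% of its ROS- UMIs lay in cells that carry other types' markers. The microglial score of the rule, at most 2 UMIs per cell, moved in the same direction. With only cells that held no microglial UMI Cd81 gave -2.18. In microglia of the same libraries, defined below, Cd81 was at 3292 and 1976 CPM in ROS+ and 3552 and 3514 in ROS-. Those microglia numbered 34 and 21 in ROS+ and 551 and 248 in ROS-. Whether background RNA from microglia adds to the Cd81 difference was not tested. Ccnd2, the cell cycle regulator cyclin D2, was at 36.1 and 64.7 CPM against 157 and 167 (log2 -1.74 ± 0.19, adjusted p = 0.00154; 0.126 with no replicate block), and without cells carrying other types' markers at -1.17. Itgax, the integrin CD11c, was at 19.9 and 32.2 against 46.7 and 60.6 (log2 -1.06 ± 0.17, adjusted p = 0.0137; 0.495 with no replicate block and 0.0921 after thinning). Csrp1, a LIM domain protein, and Syngr2, a vesicle protein, changed by -1.04 and -0.83 on the log2 scale (adjusted p = 0.0152 and 0.0241; 0.084 and 0.0815 after thinning). Neither was called without the cells carrying other types' markers (-0.73 and -0.60, adjusted p = 0.104 and 0.109). Mmp12, the macrophage elastase, was at 27.6 and 68.5 CPM in ROS+ and 65.2 and 143 in ROS-, lower within each number but overlapping between gates (log2 -1.14 ± 0.16, adjusted p = 0.00654; 0.906 with no replicate block).

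The genes of the oxidase itself were not called. All 8 NADPH oxidase genes were tested, none passed in either direction, and their median log2 fold change was 0.13, beside 0.01 over all genes. Cybb stood at 910 and 733 CPM in ROS+ and at 724 and 765 in ROS- (log2 0.13 ± 0.15, edgeR adjusted p = 0.862). Cyba, its membrane partner, was at 3714 and 3019 against 2799 and 3360 (log2 0.13 ± 0.16, adjusted p = 0.883), and Ncf1, a cytosolic subunit, at 168 and 184 against 162 and 172 (0.08 ± 0.15, adjusted p = 0.934). ROS+ and ROS- libraries overlapped for all 3 genes.

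Genes of redox defence were mostly not called either. Of 18 glutathione genes, 16 were tested and 1 was higher, Mgst2, a membrane-bound glutathione transferase. It had 47 and 85 UMIs in ROS+ and 2 and 8 in ROS-, with a UMI in 3.21% of cells or fewer in every library (log2 2.53 ± 0.42, edgeR adjusted p = 0.0198; 0.379 with no replicate block). Mgst1, its relative, named after its values were seen, was at 565 and 519 CPM against 255 and 397 (log2 0.76 ± 0.19, adjusted p = 0.119). The glutathione median was 0.11. None of 15 ROS scavenging genes was called (median 0.08), and Prdx5, a peroxiredoxin, was at 4173 and 4825 CPM against 3105 and 5083. None of 10 heme, iron and Nrf2 genes tested was called (median 0.14), with Hmox1, the inducible heme oxygenase, at 165 and 188 CPM against 106 and 219 and the ferritin chain Fth1 at 41652 and 38227 against 30950 and 48235.

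**Figure D4:**
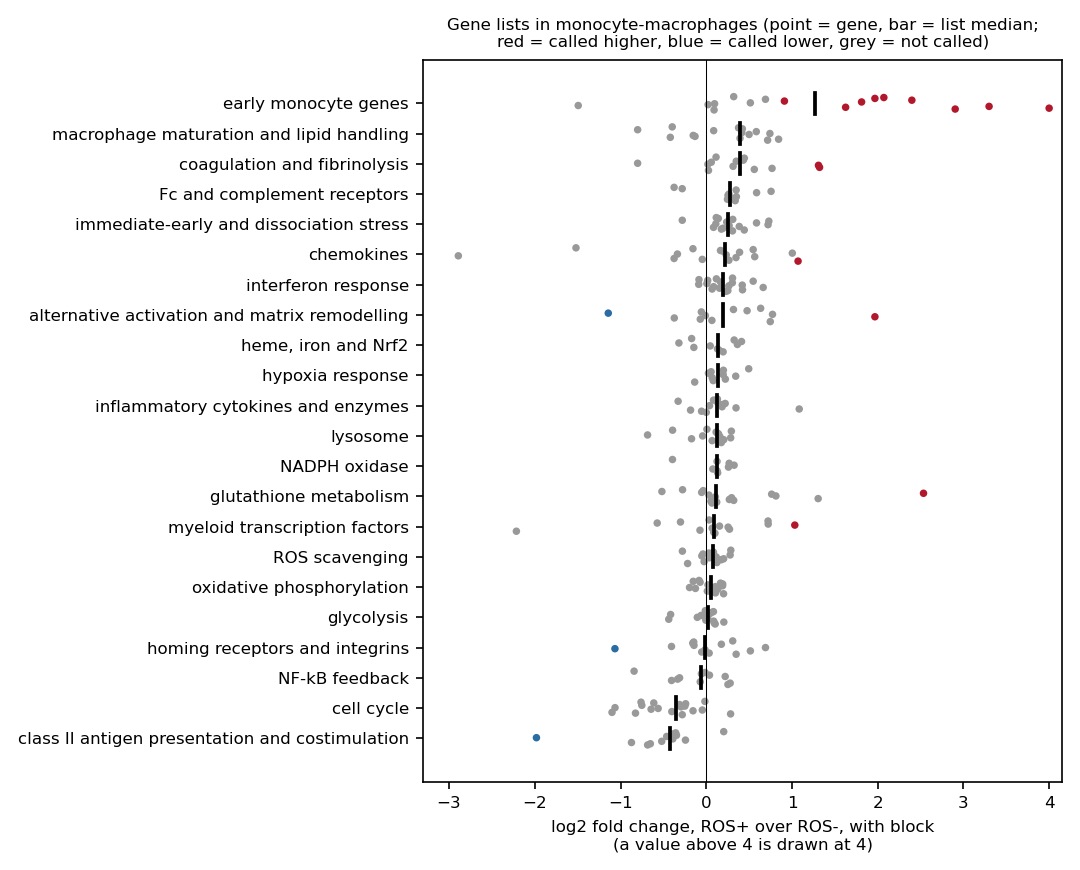
The log2 fold change (ROS+ over ROS-, with the replicate number as a block) of each tested member of 22 gene lists, with the median of each list as a black bar; red and blue points passed an adjusted p under 0.05. Early monocyte genes have the highest median, 1.27, with 9 red points, and class II genes the lowest, -0.43.

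None of 13 tested genes in the list of inflammatory cytokines and enzymes was called, with a median of 0.13; the list does not hold Ccl2, Saa3, S100a8 or S100a9. Il1b, the cytokine interleukin 1 beta, was at 2329 and 3124 CPM in ROS+ and 2415 and 3249 in ROS- (log2 -0.05 ± 0.14, edgeR adjusted p = 0.95). Nos2, the inducible nitric oxide synthase, was at 86.7 and 135 against 78.9 and 228 (log2 -0.33 ± 0.21, adjusted p = 0.652), and Tnf at 91.8 and 85.5 against 71.9 and 84.1. Arg1, arginase 1, which competes with NOS2 for arginine, was at 1924 and 2340 against 776 and 2055 CPM (log2 0.75 ± 0.23, adjusted p = 0.253). The Arg1 gate difference was 1.31 in replicate 1 and 0.19 in replicate 2, as log2(CPM + 1). Thinned cells with an Arg1 UMI were 75.9% and 67.1% of ROS+ and 41.6% and 65.5% of ROS- cells, and cells with a Nos2 UMI were 17.3% and 22.8% against 16.2% and 32.6%. Both genes had a UMI in the same cell in 172 of 1326 and 342 of 2011 ROS+ cells and in 54 of 586 and 234 of 1011 ROS- cells. In microglia of the same libraries an Arg1 UMI was found in 7 of 34 and 6 of 20 ROS+ and 19.4% and 27.4% of ROS- cells after thinning. A Nos2 UMI was found in 0 of 34 and 0 of 20 ROS+ microglia, which allows shares of up to 10.28% and 16.84%, and in 2.72% and 3.20% of ROS- cells.

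**Figure D5:**
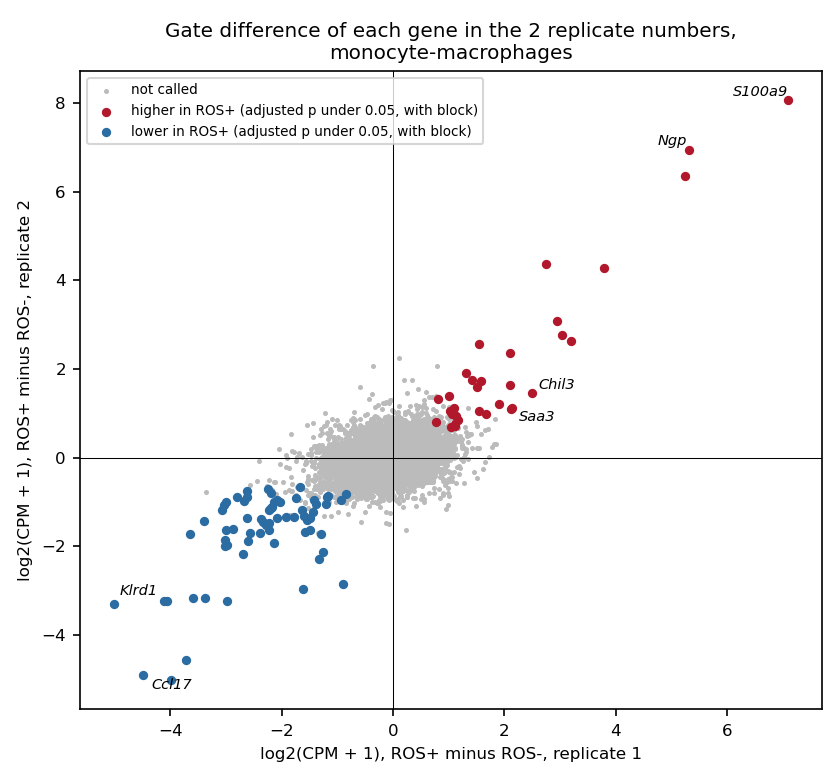
Difference between ROS+ and ROS- of each gene tested, as log2(CPM + 1), in replicate 1 (horizontal axis) and replicate 2 (vertical axis). Called genes (red higher, blue lower, adjusted p under 0.05 with the block) lie away from 0 on the same side in both numbers; Saa3 and Chil3 lie at 2.13 and 1.12, and at 2.49 and 1.46.

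Lists on maturation, metabolism and division held no called gene. They do not hold Ccnd2, given above, the lipid gene Apoc1 or the respiratory chain gene Cox6a2. The last 2 were named after their values were seen. Apoc1 was higher (log2 1.11 ± 0.2, edgeR adjusted p = 0.0299, with 0.193 with no replicate block and 0.351 after thinning). Cox6a2 was lower (log2 -1.84 ± 0.28, adjusted p = 0.0112, with 0.493 with no replicate block and 0.234 after thinning). Apoe, the lipid carrier of mature macrophages, was at 17667 and 6397 CPM in ROS+ and 8903 and 4705 in ROS-, so that ROS- replicate 1 exceeded ROS+ replicate 2 (log2 0.72 ± 0.16, edgeR adjusted p = 0.0921). None of 15 maturation and lipid genes was called (median 0.39). None of 15 glycolysis genes (median 0.02; Gapdh at 2818 and 2623 against 2451 and 3099 CPM), 16 oxidative phosphorylation genes (median 0.06; Cox4i1 at 1181 and 1020 against 985 and 939) or 10 hypoxia genes tested (median 0.14; Hif1a at 281 and 387 against 285 and 460) was called. None of 18 cell cycle genes was called (median -0.36), although 10 of them lay lower in both ROS+ libraries, as did 16.5% of all genes tested. Mki67, a marker of dividing cells, differed by log2 -0.28 ± 0.22 (adjusted p = 0.744), and Hmgb2, a chromatin protein of dividing cells, at 258 and 210 against 246 and 225.

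Interferon, NF-kB, lysosome, receptor and stress lists likewise held none that passed. The medians were 0.20 for 18 interferon response genes (Gbp2, a guanylate-binding protein, at 586 and 897 against 687 and 748 CPM), -0.06 for 11 NF-kB feedback genes and 0.13 for 15 lysosome genes. Nfkbia, the NF-kB inhibitor, was at 1083 and 1125 CPM against 852 and 1007, and Ctss, the protease cathepsin S, at 7214 and 6180 against 5587 and 6014. The median of 11 Fc and complement receptor genes was 0.28, with Fcer1g, the common Fc receptor chain, at 4835 and 4706 against 3558 and 4499 CPM. Of 16 immediate-early and dissociation stress genes, none was called, 8 lay higher in both ROS+ libraries (16.2% of all genes tested did), and the median was 0.25; Fos was at 2867 and 2296 against 2252 and 1912 CPM (log2 0.31 ± 0.14, edgeR adjusted p = 0.47). Among 13 homing receptors and integrins, Itgax was lower and no other gene was called (median -0.01); Itgam, which encodes the sorted protein CD11b, was at 248 and 305 against 171 and 272 CPM (adjusted p = 0.465). Of 12 alternative activation and matrix genes tested, Chil3 was higher and Mmp12 lower (median 0.19).

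Saa3 and Chil3 were higher in ROS+ both in cells with more and with less Ly6c2. Cells with 2 or more Ly6c2 UMIs numbered 1223 and 1815 in ROS+ and 373 and 738 in ROS-, and those with 0 or 1 numbered 103 and 275 against 213 and 282. Saa3 differed by log2 1.35 ± 0.18 in the first set and 1.8 ± 0.17 in the second (edgeR adjusted p = 0.00899 and 0.000381). Chil3 differed by 1.71 and 2.46, Thbs1 by 1.10 and 2.14, and Maf by 0.85 (adjusted p = 0.112) and 1.79 (adjusted p = 0.0166). Whether the sets differ from each other was not tested. Ly6c2 is 1 of the rule's own genes.

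To ask whether the gate difference was particular to monocyte-macrophages, it was compared with that in microglia of the same libraries, cells with 5 or more microglial UMIs and more microglial than monocyte UMIs. This definition was chosen after seeing the data, because at most 2 monocyte UMIs had left 2 and 0 ROS+ cells. It gave 34 and 21 microglia in ROS+ and 551 and 248 in ROS-. Of 11889 genes tested outside the rule, the gate difference was higher in monocyte-macrophages for 6 and lower for 17 (0.0505% and 0.143%, 0.193% in either direction; edgeR interaction test with library as a block, adjusted p under 0.05). For S100a9 the difference exceeded that in microglia by log2 4.59 ± 0.98 (adjusted p = 0.0117), with microglia at 12.4 and 50.1 CPM in ROS+ and 0.534 and 1.85 in ROS-. For Apoe it exceeded it by 0.96 ± 0.23 (adjusted p = 0.0354), with microglia at 6490 and 2238 CPM in ROS+ and 6917 and 2756 in ROS-. Cd81 fell further in monocyte-macrophages, by -1.55 ± 0.29 (adjusted p = 0.00174). Mki67 differed by -1.89 ± 0.38 (adjusted p = 0.00417), with microglia at 124 and 94.6 CPM in ROS+ and 28.1 and 44.3 in ROS-. Saa3, Chil3, Thbs1 and F13a1 were not among the genes called, which does not show that they moved alike in both classes. The ROS+ microglia sums rest on 34 and 21 cells.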

How the data were processed

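RNA of single CD11b+ cells from mouse spinal cord was measured by droplet sequencing of transcript 3′ ends. For each library the authors deposited a matrix of UMI counts, genes by barcodes; per the submitters' processing notes Cell Ranger 2.0.1, Seurat 3, R 3.4.2 and build mm10 were used; the sources used here give no settings. Barcodes needed 200 genes and no more than 10% of UMIs from mitochondrial genes. No doublet caller was run; leaving out the 5% of cells with the most UMIs was tried instead. Counts of the cells were summed per library (4356222 to 14659424 UMIs, which limits precision for genes with few UMIs) and tested by the quasi-likelihood method of edgeR 4.0.16 (R 4.3.3), with gate and replicate number as terms, TMM factors and genes kept by filterByExpr at its minimum of 10 counts. A Benjamini-Hochberg adjusted p under 0.05 was a call. The block leaves 1 residual degree of freedom. The edgeR test adds 9.30 prior degrees of freedom from a spread shared across genes, so each gene's variance rests mostly on other genes. Each SE was taken as |log2 fold change| divided by √F and inherits this. Alternatives used DESeq2 1.42.0, other filters, scalings and cell rules. Shares of cells were taken after thinning to 3000 UMIs, which left out 9 and 79 cells in replicate 2 of ROS- and ROS+. Scripts were tested on simulated data. Between the libraries of a gate, counts differed with a chi-square of 19.8 (ROS-) and 51.5 (ROS+) for each degree of freedom, so they were counted as 2 samples.

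The cell rule, the 22 gene lists, the markers and the tests were chosen with earlier results of these data known. The text names, for each direction, at most 12 called genes of largest change with an average log2 CPM of 5 or more and gates that did not overlap, up to 3 called members of each list (or the member with the highest level), and a fixed set from Cybb to Fos; those named after their values were seen are said to be. Promoter sequences are RefSeq's. Of 38293 gene IDs, symbols with several IDs (293) were kept apart by ID. The natural killer and T cell markers summed to 1.64 and 0.511 CPM in ROS+ and 29.2 and 3.69 in ROS-, B cell markers to at most 3.90, endothelial and neural markers to at most 35.5, and 3 erythroid markers to 0. The 7 microglial markers outside the rule summed to 578 and 330 CPM in ROS+ and 780 and 409 in ROS-, and none of the 5 tested was called.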

Additional observations from a re-analysis of the deposited data

Results flagged for a closer look

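The gate difference differed between monocyte-macrophages and microglia for 23 genes by the edgeR interaction test, and the 5 with the smallest p in each direction are given here as the log2 gate difference (ROS+ over ROS-) in monocyte-macrophages minus that in microglia. It was higher by 2.43 for RP24-547D11.2, 4.59 for S100a9, 3.26 for Clec4a3, 1.90 for Il18 and 3.45 for Chi3l1. It was lower for Lag3 (-2.70), Slco2b1 (-2.61), Cd81 (-1.55), Cdc20 (-3.39) and Kpna2 (-2.23). Clec4a3, a C-type lectin receptor, was at 94.6 and 93.1 CPM in ROS+ and 60.7 and 64.4 in ROS- monocyte-macrophages, and at 4.96 and 0 in ROS+ and 21.7 and 21.5 in ROS- microglia. Cdc20, which drives the exit from mitosis, was at 91.8 and 61.2 CPM in ROS+ and 20.1 and 28.3 in ROS- microglia and at or below 3.41 in every monocyte-macrophage library. The ROS+ microglia were 34 and 21 cells, so low CPM values there rest on few UMIs.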

How the results depend on the processing

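With no replicate block 4 genes were higher and 8 lower, all among the 32 and 66. The labels do not pair the replicate numbers and there are only 2; over 3382 genes the difference between replicate 1 and 2 in ROS+ correlated with that in ROS- at r = 0.515 (rho 0.445). With a replicate block by class, 136 genes instead of 23 differed between classes, and 39 with RLE scaling. Higher and lower counts were 21 and 48 with RLE scaling, 21 and 45 with DESeq2, 131 and 218 with no low count filter, 33 and 40 with a strict one (50 counts), 107 and 201 with the rule per 10000 UMIs, 23 and 35 with no microglial UMI, 13 and 21 after thinning to 3000 UMIs, 21 and 29 with 2 or more Ly6c2 UMIs, 29 and 41 with 0 or 1, and 0 and 0 without other types' cells and with no block. Leaving out 1 library, with no block and the lone library assumed to vary like the others, gave 25 and 49 (without ROS- replicate 1), 20 and 88 (ROS- replicate 2), 17 and 20 (ROS+ replicate 1) and 13 and 27 (ROS+ replicate 2). The 98 calls kept their direction wherever they were tested, except 1 without ROS- replicate 2 and 1 without ROS+ replicate 2. With no block, 22 of the named genes lost their call, not counting Cxcl13, Cxcl14, H2-Ob, Apoc1 and Cox6a2, which lost theirs as well. The cause was not tested. Among named genes other than Cxcl13, Cxcl14, H2-Ob, Apoc1 and Cox6a2, only uncalled ones changed sign on the log2 scale. Cyba was at -0.021, Fth1 at -0.043, Il1b at 0.15, Apoe at -0.08, Hif1a at 0.062 and Cybb at -0.015 (without ROS+ replicate 1). Prdx5 was at -0.176, Fth1 at -0.272, Gbp2 at -0.013, Hmgb2 at 0.057 and Hmox1 at -0.313 (without ROS- replicate 1). Fth1 was at -0.021 and Hmgb2 at 0.031 (thinned). Fth1 was at -0.019 (without other types' cells). Fth1 was at -0.059 (2 or more Ly6c2 UMIs). Fth1 was at -0.053 and Hmox1 at -0.011 (without other types' cells, no block). Gbp2 was at -0.009 (strict filter). Gbp2 was at -0.02 (per 10000 UMIs). Gbp2 was at -0.235, Gapdh at 0.045, Hmgb2 at 0.107 and Tnf at -0.224 (0 or 1 Ly6c2 UMIs). Gbp2 was at -0.291, Gapdh at 0.024 and Hmgb2 at 0.134 (without ROS+ replicate 2). Il1b was at 0.037, Gapdh at 0.035, Hmgb2 at 0.016 and Ncf1 at -0.042 (no microglial UMI). Il1b was at 0.176, Gapdh at 0.15, Hif1a at 0.231 and Nos2 at 0.49 (without ROS- replicate 2). Gapdh was at 0.015 and Hmgb2 at 0.019 (no filter). Hmgb2 was at 0.017 (without the 5% deepest cells). The planned microglia rule could not be fitted.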
